A study of Mus musculus with 6 samples.

Results

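A set of 9 genes of fatty acid oxidation was followed by symbol through 6 sorted intestinal stem cell libraries. They are *Ppara*, *Ppard* and *Pparg*, which encode the nuclear receptors of the PPAR family, *Cpt1a* and *Cpt2* of the carnitine shuttle, *Acadl*, *Hadha* and *Acaa2* of mitochondrial beta-oxidation, and *Pdk4*, a kinase of the pyruvate dehydrogenase complex. These 9 genes were chosen because their pathway is known to tune intestinal stem cells, and with earlier results of these data known. Each matched 1 of the 56884 genes in the count files. No enzyme dedicated to ketone body synthesis is among the 9, so ketone body genes are given from a separate list of 5 genes. The organoids, epithelial cultures of small intestine, came from mice homozygous for a floxed *Ythdf2* allele (Ythdf2fl/fl) that also carried Villin-CreERT2 and Lgr5-EGFP-IRES-CreERT2, so the EtOH controls had all of these alleles as well. CreERT2 is a recombinase that acts once 4-hydroxytamoxifen (4-OHT) binds it, here driven by the villin promoter across the epithelium and by *Lgr5* in stem cells. Cells positive for Lgr5-GFP were sorted after exposure to 0.5 µM 4-OHT or to the vehicle, ethanol (EtOH), and their messenger RNA was sequenced. There were 2 libraries of each treatment at day 6 and 1 of each at day 4. The age of the mice was not given in the sources used here, nor whether replicates came from separate cultures, so p-values measure the spread between these libraries, which may be technical.

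Fatty acids that enter a cell are activated to acyl-CoA, pass the mitochondrial membrane as carnitine esters and are shortened in repeated rounds of beta-oxidation to acetyl-CoA, which can be burned or turned into ketone bodies. PPAR receptors bind fatty acids, pair with RXR receptors and switch on many of the genes of these steps. In the intestinal epithelium, PPAR-delta and carnitine palmitoyltransferase 1a are known for supporting stem cell function in fasting and on a high-fat diet.

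The libraries held 14345379 to 21461835 gene counts. *Ythdf2*, the floxed gene, was read as the check of the labels. Its level was 82.7 and 76.0 CPM (counts scaled by library size and TMM factors) with EtOH and 208 and 204 CPM in the libraries labelled 4-OHT at day 6, and 76.1 against 167 CPM at day 4. The floxed gene was thus higher, not lower, in every library labelled 4-OHT, so libraries are named by label, and each direction below is that of libraries labelled 4-OHT. The labelled cell type was present by its markers. All 8 epithelial and all 10 stem cell markers looked for were tested, while 11 markers of blood, vessel and connective tissue cells summed to at most 2.21 CPM in any library. Enterocyte markers, from a list of 19 that leaves out lipid genes, moved with the label. Of 18 tested, 17 had a log2 fold change above 0 at day 6 and 13 rose, beside 48.2% and 2.27% of all genes tested. The summed level of these markers was 1921 and 2232 CPM with EtOH against 4842 and 3831 CPM. At day 4 the same sum was 1639 against 1959 CPM. Of 5 tuft cell markers tested, 5 had a log2 fold change below 0 at day 6, with a median of −1.67, and *Dclk1* fell. All 8 tuft cell markers listed summed to 34.9 and 20.5 CPM with EtOH against 10.6 and 9.05 CPM at day 6, and to 10.6 against 7.74 CPM at day 4. Of 8 goblet cell markers, 4 were above 0 and *Clca1* and *Zg16* rose. The 8 summed to 3080 and 3288 CPM with EtOH against 2679 and 2452 CPM at day 6, and to 1960 against 2264 CPM at day 4. Of 7 Paneth cell markers 7 were above 0 at day 6, and of 8 enteroendocrine markers 6, with 0 called in either list. At day 4 the Paneth cell markers summed to 397 against 1660 CPM and the enteroendocrine markers to 59.6 against 281 CPM. Stem cell markers summed to 6076 and 5785 CPM with EtOH at day 6 and to 3969 and 3700 CPM in the libraries labelled 4-OHT, with 0 markers higher and 1 lower past the threshold. The part of these shifts in any result below was not tested, and in sorted bulk cells a change in the mix of cells cannot be told apart from a change of RNA per cell.

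The promoters of the genes were read for the letters of the PPAR element, a direct repeat of AGGTCA with 1 base between. RefSeq promoter windows (build GRCm38.p6, 250 bases before to 50 after a start) were found for 8 of the 9 members, in 10 windows. The exact repeat (AGGTCA, any base, AGGTCA), on either strand, was in 0 of these 10 windows and in 0.0396% of all 32841 promoters, and the looser form (AGGNCA, any base, AGGNCA), which also matches every exact repeat, was in 0 and in 0.381%. The single unit AGGTCA, which also lies inside the exact repeat, was in 3 of the 10 and in 16.3% of all promoters. These 3 windows were those of *Cpt1a* and of 2 of the 3 *Pparg* starts. A match is a description of letters and not of binding. Shown here, 5′ to 3′ on the strand of each gene and ending at the base before its start, are the 250 bases of *Cpt1a* (chr19:3323051-3323300, plus strand), which hold a single unit, and those of *Acadl* (chr1:66863310-66863559, minus strand), the member that passed the test at day 6. They are followed by *Hadha* (chr5:30154981-30155230, minus strand), whose start lies 272 bases from the oppositely directed start of *Hadhb*, so that these bases precede both genes. The last, for contrast, is *Fabp1* (chr6:71199629-71199878, plus strand), which is no member but the 1 gene of the fatty acid uptake list that rose. Capitals mark each match, read on the opposite strand as TGACCT for the single unit.
Cpt1a: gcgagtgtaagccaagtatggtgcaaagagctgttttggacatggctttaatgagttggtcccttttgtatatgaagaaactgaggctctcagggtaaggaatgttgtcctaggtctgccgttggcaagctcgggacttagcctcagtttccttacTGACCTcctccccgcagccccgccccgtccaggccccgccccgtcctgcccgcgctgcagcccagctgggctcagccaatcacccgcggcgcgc
Acadl: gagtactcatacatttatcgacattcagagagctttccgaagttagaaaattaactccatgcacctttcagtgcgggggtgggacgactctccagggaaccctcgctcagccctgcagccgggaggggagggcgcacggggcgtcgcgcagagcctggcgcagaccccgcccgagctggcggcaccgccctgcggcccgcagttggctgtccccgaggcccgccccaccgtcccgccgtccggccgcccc
Hadha: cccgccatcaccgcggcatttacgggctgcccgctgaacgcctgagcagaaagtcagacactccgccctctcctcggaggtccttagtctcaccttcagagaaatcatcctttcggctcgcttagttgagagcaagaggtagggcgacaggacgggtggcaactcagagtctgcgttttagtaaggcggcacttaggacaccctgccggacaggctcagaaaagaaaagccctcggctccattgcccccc
Fabp1: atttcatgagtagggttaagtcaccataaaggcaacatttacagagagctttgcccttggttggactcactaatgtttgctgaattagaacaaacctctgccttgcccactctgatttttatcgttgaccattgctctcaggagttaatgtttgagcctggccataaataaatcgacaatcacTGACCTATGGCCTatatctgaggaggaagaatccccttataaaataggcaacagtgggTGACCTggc
The longer run of capitals in *Fabp1* is the looser element on the opposite strand, its first base 67 bases before the start. Other genes outside the members that rose did not share it. The windows of *Acaa1b*, *Oxct1* and *Acad11* held no match, and *Creb3l3* held a single unit only. Whether these letters bear on any rise was not tested.

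Levels of different genes were compared as CPM per kb of merged exons, with exon lengths from GENCODE M39 (build GRCm39). The 4 enzymes *Acadl* (mean 30.6 CPM per kb, range 23.5 to 38.4 over 6 libraries), *Cpt2* (28.7, range 22.4 to 38.6), *Hadha* (27.8, range 23.6 to 31.8) and *Acaa2* (27.4, range 23.5 to 34.2) stood highest. Neighbours in this order did not separate, as each was above the next in only 3 or 4 of 6 libraries. *Cpt1a* followed at 12.6 CPM per kb (range 10.3 to 14.8), below *Acaa2* in all 6 libraries. Among the receptors, *Ppard* stood at 10.2 CPM per kb (range 7.21 to 13.7), *Pparg* at 7.70 (range 5.44 to 10.9) and *Ppara* at 3.54 (range 1.79 to 4.45), and this order held in each of the 6 libraries. *Cpt1a* was above *Ppard* in 5 of 6. *Pdk4* was lowest, at 0.275 CPM per kb, with a range of 0.0279 to 1.00. Merged exons count every annotated isoform. Of the exon bases, 27.4% in *Ppara* and 31.0% in *Hadha* are shared with neighbouring genes, and reads on such bases can be left out as ambiguous, so these levels may be too low.

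**Figure D1:**
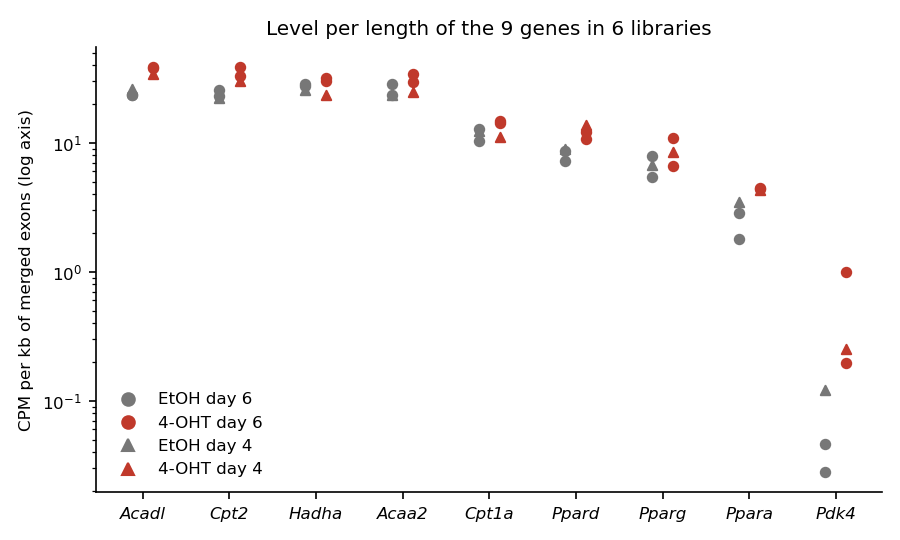
Level of each gene in CPM per kb of merged exons (log axis) in the 6 libraries, ordered by mean. Circles are day 6, triangles day 4, grey EtOH and red libraries labelled 4-OHT; the 4 enzymes on the left have means of 27.4 to 30.6 and *Pdk4* lies at 0.0279 to 1.00.

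The day 6 comparison asked which of these genes differ in Lgr5-GFP-positive cells between the treatments. All 9 had a log2 fold change above 0, with a median of 0.52, where 48.2% of all 14066 genes tested were above 0 and their median was −0.01. *Acadl* alone passed the threshold, an adjusted p under 0.05 over all genes by the edgeR quasi-likelihood test. That is 1 of 9, where 2.51% of all genes tested passed in either direction and 2.27% as higher. In 8 of the 9, with *Pparg* the exception, both libraries labelled 4-OHT lay above both EtOH libraries, as was the case for 20.5% of all genes. Over both days, with 3 libraries of each label and day as a term, all 9 were again above 0, with a median of 0.51, and *Acadl*, *Cpt2* and *Ppard* passed, 3 of 9 against 4.39% of all 14060 genes in either direction and 3.67% as higher. This fit contains the day 6 libraries and is not an independent check. In 5 of the 9, *Ppara*, *Ppard*, *Cpt2*, *Pdk4* and *Acadl*, all 3 libraries labelled 4-OHT lay above all 3 EtOH libraries, against 11.1% of all genes, with a further 9.02% separated the other way. At an unadjusted p under 0.05 were 5 of the 9 in each comparison, where the share of all genes was 10.3% at day 6 and 16.1% over both days. As the 9 were chosen with earlier results of these data known, these shares describe them and test nothing. The count of members called moved with single libraries. At day 6 *Acadl* was lost on leaving out any library, while *Ppara* was gained without EtOH replicate 2 and *Pdk4* without 4-OHT replicate 2, so the count was 0 or 1. Over both days the count fell to 0 when 4-OHT replicate 1 of day 6 was left out. Without 4-OHT replicate 2 of day 6 it was 1, but this was *Pdk4*, and *Acadl*, *Cpt2* and *Ppard* were all lost. Without either day 4 library only *Acadl* was called. The day term then takes up the remaining day 4 library, so this fit rests on the day 6 libraries alone. Calls lost in this way, here and for single genes below, are a return to the day 6 comparison.

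**Figure D2:**
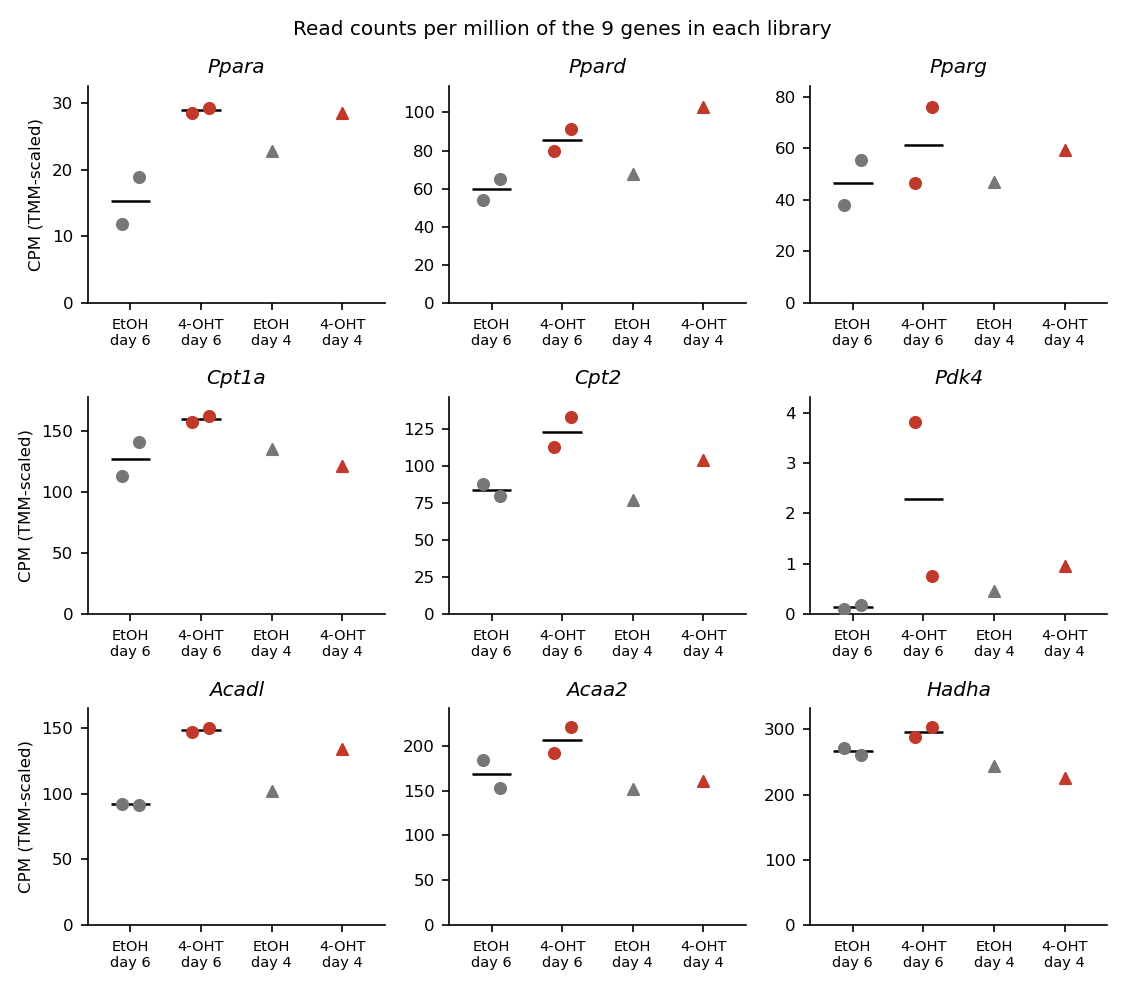
CPM of the 9 genes in each library, by treatment and day (circles day 6, bars their mean, triangles day 4, grey EtOH, red labelled 4-OHT). In *Acadl* the day 6 libraries sit at 91.6 and 91.9 against 147 and 150, while in *Pparg* the groups overlap and in *Pdk4* 1 library stands at 3.81.

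Among the receptors, *Ppard* (ENSMUSG00000002250; chromosome 17, 28451674 to 28520448, plus strand, GRCm39), the most abundant PPAR here, rose over both days. It stood at 54.2 and 65.0 CPM with EtOH and at 79.7 and 91.5 CPM in the libraries labelled 4-OHT at day 6, and at 67.8 against 103 CPM at day 4. The 3 libraries labelled 4-OHT were the 3 highest. The log2 fold change was 0.55 (SE 0.12, edgeR adjusted p 0.031) over both days and 0.52 (SE 0.18, adjusted p 0.246) at day 6 alone. The call over both days was lost on leaving out any library except EtOH replicate 2 of day 6, with log2 fold changes between 0.48 and 0.63 and edgeR adjusted p values up to 0.245.

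*Ppara* (ENSMUSG00000022383; chromosome 15, 85618656 to 85687067, plus strand), the PPAR best known from the fasted liver, had the lowest level of the receptors. Its counts were 223 and 327 with EtOH and 616 and 547 in the libraries labelled 4-OHT at day 6, or 11.8 and 18.9 against 28.6 and 29.3 CPM. At day 4 it stood at 22.8 against 28.5 CPM. All libraries labelled 4-OHT were close to each other and above every EtOH library. The day 6 log2 fold change of 0.91 (SE 0.25) had an edgeR adjusted p of 0.122 and did not pass, nor did the value over both days (0.72, SE 0.20, adjusted p 0.0914). It was called at day 6 without EtOH replicate 2, at 1.29 (adjusted p 0.0409), and with DESeq2 (0.91, adjusted p 0.0365), in a range of 0.00156 to 0.319 over the alternatives.

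*Pparg* (ENSMUSG00000000440; chromosome 6, 115337675 to 115468268, plus strand), known as the regulator of fat cell formation, did not separate the groups. The levels were 37.9 and 55.4 CPM with EtOH against 46.4 and 76.1 CPM at day 6, and 47.0 against 59.3 CPM at day 4. Replicate 2 was the higher in both treatments. The day 6 log2 fold change was 0.39 (SE 0.26, edgeR adjusted p 0.719), and it was −0.01 without 4-OHT replicate 2.

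Of 11 partners and co-regulators of the PPARs, 10 were tested, 5 with a log2 fold change above 0 at day 6, and 0 passed in edgeR at day 6 or over both days, with 1 at an unadjusted p under 0.05 in each. In DESeq2, too, 0 passed in either comparison. *Rxra*, the RXR partner, stood at 96.1 and 100 against 109 and 110 CPM at day 6 (log2 fold change 0.16, SE 0.15). The coactivator gene *Ppargc1a* had 4.71 and 14.4 CPM with EtOH, further apart than the 11.4 and 17.1 CPM of the libraries labelled 4-OHT, and its log2 fold change of 0.58 (SE 0.43) became −0.02 without EtOH replicate 1. *Rxrg* had 0 counts in all 6 libraries.

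In the carnitine shuttle, *Cpt2* (ENSMUSG00000028607; chromosome 4, 107751473 to 107780812, minus strand), whose enzyme returns acyl groups to CoA inside the mitochondrion, rose over both days. It stood at 88.1 and 79.9 CPM with EtOH and at 113 and 133 CPM in the libraries labelled 4-OHT at day 6, and at 77.3 against 104 CPM at day 4. The groups did not overlap. The log2 fold change was 0.51 (SE 0.11, edgeR adjusted p 0.0336) over both days and 0.55 (SE 0.17, adjusted p 0.173) at day 6. The call held without EtOH replicate 1 of day 6 and was lost without any other library, with log2 fold changes of 0.43 to 0.57 and edgeR adjusted p values up to 0.182. It was also lost without a filter on low counts (0.51, adjusted p 0.0567).

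*Cpt1a* (ENSMUSG00000024900; chromosome 19, 3371853 to 3437996, plus strand), the rate-limiting enzyme of fatty acid entry, did not pass, and its day 4 pair of libraries went the other way. At day 6 it stood at 113 and 141 CPM with EtOH and at 157 and 162 CPM in the libraries labelled 4-OHT, with a log2 fold change of 0.32 (SE 0.17, edgeR adjusted p 0.589). At day 4 the order was the other, 135 CPM with EtOH against 121 CPM, a ratio of 0.894. This pair lay closer together than the EtOH replicates of day 6. A change of direction thus cannot be told from the spread between libraries. Over both days the log2 fold change was 0.17 (SE 0.14, adjusted p 0.622). Its relatives *Cpt1b* and *Cpt1c* had at most 13 and 40 counts in any library, so *Cpt1a* was the main *Cpt1* gene read here.

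Of the 9 shuttle genes, 8 were tested. None passed at day 6 in edgeR (3 at an unadjusted p under 0.05, and 1 in DESeq2). Over both days, where 3.67% of all genes rose, 2 did, *Cpt2* and *Crat*. *Crat*, carnitine acetyltransferase, stood at 23.0 and 28.9 against 45.3 and 46.0 CPM at day 6 and at 20.9 against 32.4 CPM at day 4, with a log2 fold change over both days of 0.76 (SE 0.14, edgeR adjusted p 0.0131). Leaving out any single library labelled 4-OHT, or the day 4 EtOH library, ended the call for *Crat*, with edgeR adjusted p values up to 0.0652. *Slc25a20*, the carnitine carrier of the inner membrane, stood at 32.4 and 30.0 against 41.1 and 42.2 CPM at day 6 (0.41, SE 0.18, edgeR adjusted p 0.465).

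In the mitochondrial spiral, *Acadl* (ENSMUSG00000026003; chromosome 1, 66868267 to 66902633, minus strand), the long-chain acyl-CoA dehydrogenase of its first step, rose in both comparisons. Its counts were 1737 and 1581 with EtOH and 3153 and 2800 in the libraries labelled 4-OHT at day 6, or 91.9 and 91.6 against 147 and 150 CPM. The replicates were nearly level within each group. At day 4 it stood at 102 against 134 CPM. The log2 fold change was 0.69 (SE 0.15, edgeR adjusted p 0.0483) at day 6, a 1.61-fold difference, and 0.59 (SE 0.11, adjusted p 0.0132) over both days. The size held between 0.67 and 0.71 in every alternative at day 6, but the adjusted p lay so near the threshold that the call was lost on leaving out any day 6 library (0.0628 to 0.34), with another scaling (0.0502), without a filter (0.0941) and with the earlier form of the edgeR test (0.0521). The form reported was settled on after both outcomes were seen. DESeq2 called *Acadl* too (adjusted p 0.00829). Over both days it was lost without either day 6 library labelled 4-OHT (0.0726 and 0.0751).

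*Acaa2* (ENSMUSG00000036880; chromosome 18, 74911948 to 74953492, plus strand), the thiolase that closes the spiral, stood at 184 and 153 CPM with EtOH against 192 and 221 CPM at day 6, and at 152 against 161 CPM at day 4. The nearest libraries of the groups, at 184 and 192 CPM at day 6, lay closer together than the replicates within either group. *Acaa2* missed the threshold at day 6, with a log2 fold change of 0.29 (SE 0.17, edgeR adjusted p 0.65), as did the 0.23 (SE 0.12) over both days (0.395).

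*Hadha* (ENSMUSG00000025745; chromosome 5, 30323302 to 30360187, minus strand) encodes the alpha subunit of the trifunctional protein, which carries out the later steps on long chains. It stood at 272 and 261 CPM with EtOH against 288 and 304 CPM at day 6, and at 244 against 225 CPM at day 4. It differed least of the 9, by a log2 fold change of 0.15 (SE 0.15, edgeR adjusted p 0.861) at day 6 and 0.06 (SE 0.11) over both days. *Hadhb*, the beta subunit that starts on the other side of the bases shown above, stood at 128 and 128 against 137 and 148 CPM at day 6 and at 112 against 101 CPM at day 4, also a log2 fold change of 0.15 (SE 0.15). The ratio of *Hadha* to *Hadhb* counts lay between 2.04 and 2.24 in all 6 libraries. Part of the *Hadha* exon bases overlaps *Hadhb* and *Garem2*.

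All 19 genes of the mitochondrial list were tested. Of these, 17 had a log2 fold change above 0 at day 6, with a median of 0.15, and 1 rose at day 6 and 2 over both days. Of all genes, 48.2% were above 0 at day 6, and 2.27% rose at day 6 and 3.67% over both days. In the day 4 pair, 10 were above 0 and 9 below, with a median of 0.00. The medium-chain dehydrogenase *Acadm* stood at 85.7 and 97.6 against 100 and 113 CPM at day 6 (0.22, SE 0.16), and the very-long-chain *Acadvl* at 53.5 and 64.8 against 77.5 and 84.2 CPM (0.45, SE 0.17, edgeR adjusted p 0.363). *Acad11*, a further acyl-CoA dehydrogenase, rose over both days (0.66, SE 0.15, edgeR adjusted p 0.0326), from 17.3, 19.0 and 16.8 CPM with EtOH to 31.4, 25.9 and 26.6 CPM, a call that was kept without EtOH replicate 2 of day 6 and lost without any other library (up to 0.208).

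*Pdk4* (ENSMUSG00000019577; chromosome 6, 5483097 to 5496339, minus strand), a kinase that shuts off pyruvate dehydrogenase and so spares glucose when fat is burned, was nearly silent. Its counts were 2 and 3 with EtOH and 82 and 14 in the libraries labelled 4-OHT at day 6, and 9 against 14 at day 4. The groups did not overlap at day 6, but replicate 1 labelled 4-OHT stood far above the rest at 3.81 CPM, where replicate 2 had 0.749 CPM and the day 4 pair 0.462 and 0.951 CPM. Of the 96 counts in the day 6 libraries labelled 4-OHT, 82 came from replicate 1. At day 6 *Pdk4* missed the threshold, with a log2 fold change of 4.01 (SE 1.00, edgeR adjusted p 0.0771). It was 4.71 (adjusted p 1.37e-06) without 4-OHT replicate 2 and 2.38 without 4-OHT replicate 1, in a range of adjusted p up to 0.558. That replicate 1 also held more Paneth cell marker RNA, 4927 CPM over 7 genes against 2020 CPM in replicate 2 and 2809 and 2018 CPM with EtOH. Enteroendocrine markers summed to 720 CPM in it, against 379 CPM in replicate 2 and 462 and 385 CPM with EtOH. Enterocyte markers stood at 4842 CPM in replicate 1 and 3831 CPM in replicate 2. The part of these differences in the *Pdk4* value was not tested.

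The other kinases were far more abundant in reads. *Pdk1* had 380 to 503 CPM in the 6 libraries and a day 6 log2 fold change of −0.04 (SE 0.19), and *Pdk2* had 61.0 to 93.8 CPM and 0.35 (SE 0.18). Of the 13 genes of the pyruvate dehydrogenase list, 8 had a log2 fold change above 0 at day 6, with a median of 0.07. None passed in edgeR, with 1 at an unadjusted p under 0.05 at day 6 and 4 over both days. In DESeq2 1 passed in each comparison, which was *Pdk4*.

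**Figure D3:**
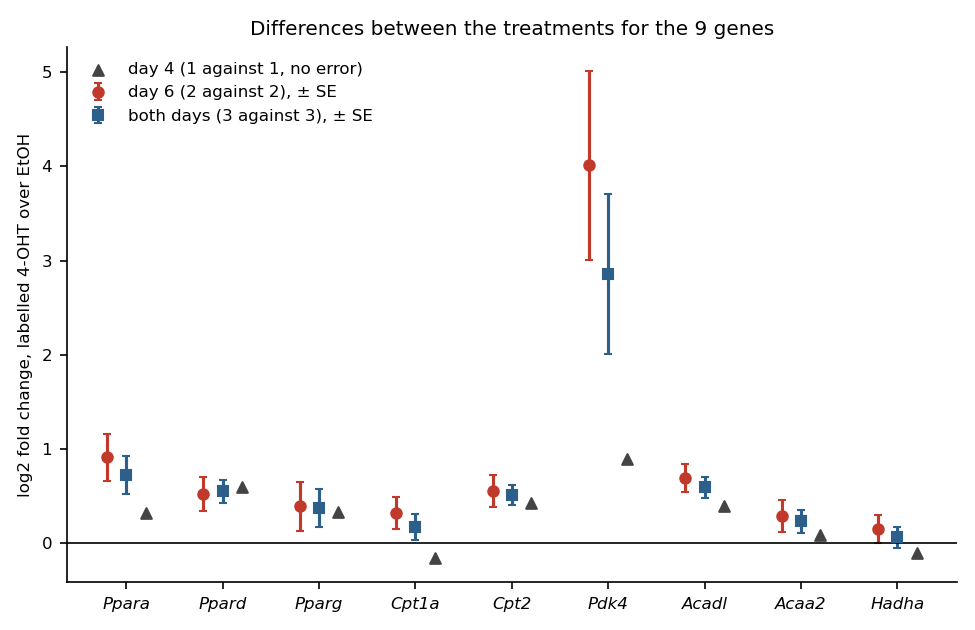
Log2 fold change of each gene, libraries labelled 4-OHT over EtOH, at day 6 (circles, 2 against 2, ± SE), over both days (squares, 3 against 3, ± SE) and at day 4 (triangles, 1 against 1, no error). *Pdk4* stands alone at 4.01 with an SE of 1.00, *Acadl* is at 0.69 and 0.59, and *Cpt1a* and *Hadha* fall below 0 at day 4.

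Genes of the peroxisomal branch, which shortens very long chains, were mostly above 0 as well. Of 15 tested among 16, 14 had a log2 fold change above 0 at day 6, with a median of 0.25, and 1 rose, as it did over both days. Of all genes, 2.27% rose at day 6 and 3.67% over both days. *Acaa1b*, a peroxisomal thiolase, rose from 3.23 and 4.35 to 16.0 and 13.9 CPM (1.98, SE 0.29, edgeR adjusted p 0.00588), a call lost without EtOH replicate 1 (1.78, adjusted p 0.0785). *Acaa1b* has a close copy, *Acaa1a*, so its counts are uncertain.

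In ketone body metabolism, *Oxct1*, whose enzyme acts in the use of ketone bodies, rose over both days. The rise was a log2 fold change of 0.84 (SE 0.13, edgeR adjusted p 0.006), from 165, 161 and 109 CPM with EtOH to 235, 322 and 212 CPM. Without either day 4 library, where the fit rests on day 6 alone, its log2 fold change was 0.77 and the call was lost. It was the only gene of the 5 listed to pass over both days, and 0 of 5 passed at day 6 in edgeR, with 1 at an unadjusted p under 0.05 and 1 called by DESeq2.

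Fatty acid uptake and activation had 11 of 12 genes tested at day 6, 9 with a log2 fold change above 0 and a median of 0.36. Where 2.27% of all genes rose, 1 of these did. This was *Fabp1*, a fatty acid binding protein, at 114 and 60.9 CPM with EtOH against 422 and 499 CPM at day 6 (2.39, SE 0.27) and 61.3 against 195 CPM at day 4. *Fabp1* is also abundant in enterocytes, of whose 18 other markers tested 13 rose at day 6. The acyl-CoA synthetase *Acsl5*, chosen after its values were seen, stood at 212 and 228 against 276 and 330 CPM (0.46, SE 0.17, edgeR adjusted p 0.3).

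Among 25 target genes of the PPARs, a list that shares *Cpt1a*, *Pdk4*, *Acadl* and *Acaa2* with the 9, 21 were tested at day 6. Of these, 18 had a log2 fold change above 0, with a median of 0.34, 4 rose and 1 fell. Of all genes tested at day 6, 48.2% were above 0, 2.27% rose and 0.235% fell. Besides *Acadl*, *Acaa1b* and *Fabp1*, the fourth to rise was *Creb3l3*, a transcription factor gene of fasting metabolism, from 12.8 and 8.29 to 54.6 and 49.2 CPM (2.29, SE 0.24, edgeR adjusted p 0.00118). The targets *Angptl4* and *Plin2* did not pass. *Angptl4*, a lipase inhibitor, stood at 5.19 and 5.85 against 8.56 and 6.91 CPM (0.49, SE 0.29, edgeR adjusted p 0.677), and *Plin2*, the lipid droplet coat gene, at 72.9 and 58.4 against 71.2 and 74.9 CPM (0.15, SE 0.18). *Mgll*, monoacylglycerol lipase, fell, from 4.92 and 6.78 to 2.05 and 1.34 CPM at day 6 (−1.77, SE 0.39, edgeR adjusted p 0.0428) and stood at 10.1 against 2.11 CPM at day 4. Its day 6 call was kept without 4-OHT replicate 1 and lost without any other day 6 library (0.12 to 0.151) or with the earlier form of the edgeR test (0.055), while over both days (−1.93, adjusted p 0.00419) it held without each of the 6. *Mgll* was also the 1 gene called among the 7 tested of the lipolysis list.

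Fatty acid synthesis, the opposite pathway, had 12 of 12 genes tested, 8 with a log2 fold change below 0 at day 6 and 10 over both days, with a median of −0.24 in each. None passed in edgeR, with 2 of 12 at an unadjusted p under 0.05 at day 6 and 5 of 12 over both days, beside the 10.3% and 16.1% of all genes. DESeq2 called 0 at day 6 and 2 over both days. *Fasn*, fatty acid synthase, stood at 708 and 691 CPM with EtOH against 563 and 432 CPM at day 6 and at 789 against 619 CPM at day 4 (−0.49, SE 0.19, edgeR adjusted p 0.325 at day 6), and was named after its values were seen. The lists were chosen with earlier results of these data known, and their counts describe these genes only.

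**Figure D4:**
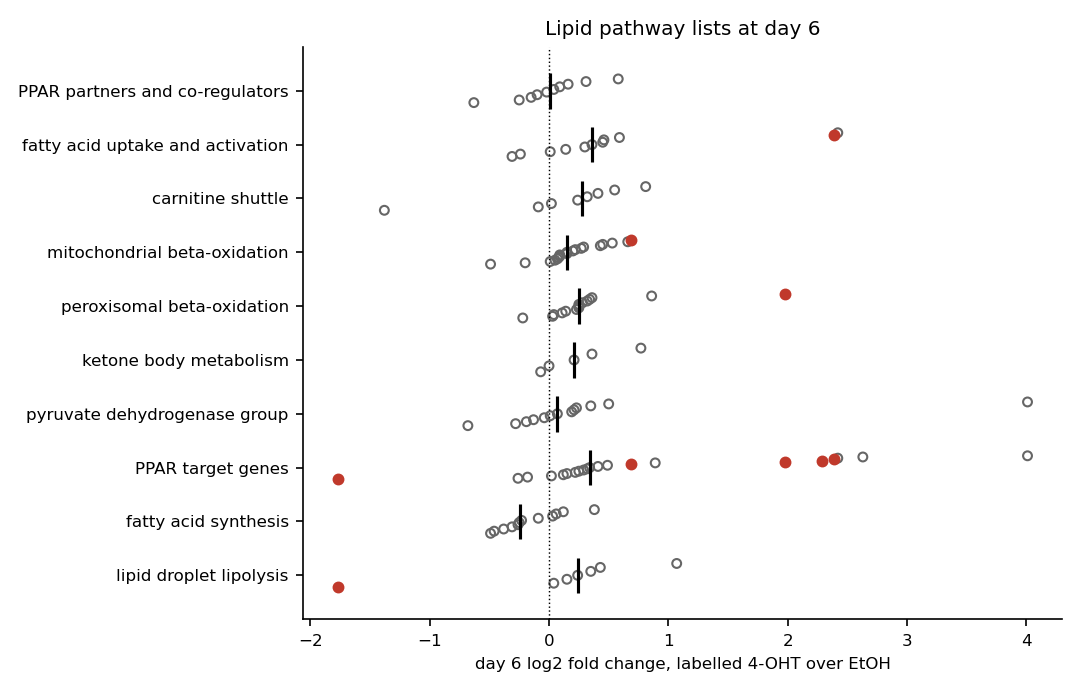
Day 6 log2 fold change of every tested gene in 10 lipid pathway lists, libraries labelled 4-OHT over EtOH. Filled red points passed an adjusted p of 0.05, open points did not, and black bars are medians, which run from −0.24 for fatty acid synthesis to 0.36 for uptake and activation; genes in more than 1 list appear in each.

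Day 4 gave 1 library per treatment, so its differences were not tested. The log2 fold change was above 0 in 7 of the 9, from 0.08 for *Acaa2* to 0.89 for *Pdk4*, and below 0 for *Cpt1a* (−0.16) and *Hadha* (−0.11). *Ppard* had the largest value among members with over 100 counts, 0.60, a ratio of 1.52 (exact 95% interval 1.41 to 1.63, counting error alone). The median was 0.33, and 7020 of all 14060 genes were above 0. Of list genes tested over both days, 10 of 19 mitochondrial, 10 of 15 peroxisomal, 4 of 9 uptake and 14 of 20 target genes were above 0. Their day 4 medians were 0.00, 0.10, −0.07 and 0.13, in that order. Among fatty acid synthesis genes, 11 of 12 were below 0, with a median of −0.29. Whether the treatment difference itself changed between days was tested as an interaction. In edgeR 0 of the 9 passed, with 0 at an unadjusted p under 0.05. Of all genes 0 passed, with 228, or 1.62%, at an unadjusted p under 0.05 and 6 called by DESeq2. The spread in this test came from the replicated day 6 groups only. It therefore cannot show that the treatment difference was alike on both days. The largest estimates were those of *Pdk4* (2.98, SE 1.87), *Ppara* (0.59, SE 0.43) and *Cpt1a* (0.49, SE 0.30), none of which was distinguishable from 0.

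Between the days, with treatment as a term, 0 of the 9 passed, where 0.562% of all genes did, and DESeq2 called 0 of the 9. At an unadjusted p under 0.05 was 1 of the 9, *Hadha*, a share near the 12.6% of all genes, with a log2 fold change of 0.26 (SE 0.11, edgeR adjusted p 0.395). *Ppard* (−0.23, SE 0.13) and *Ppara* (−0.28, SE 0.21) had values below 0. Day and the making of the libraries cannot be told apart, as the day 4 libraries carry library names from a separate number series. Entries that were unmapped, multimapping, without a feature or ambiguous made up 24.95% to 26.71% at day 4, against 19.29% to 21.01% at day 6.

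Over the 6 libraries, the 36 pairs of members had Pearson correlations of log2 CPM between −0.13 and 0.91, with a median of 0.59. The highest was that of *Cpt2* and *Acadl* (0.91), followed by *Ppara* and *Ppard* (0.89). Among 10433 other genes (10434 for *Pdk4*) whose mean reached 5 CPM, the gene most like *Acadl* was *Ppp4r1* (r = 0.996), that most like *Ppard* was *Ptgr2* (0.997), that most like *Cpt1a* was *Ipmk* (0.996) and that most like *Hadha* was *Decr1* (0.989), a further enzyme of the mitochondrial list. *Ppara* was most like *Gmip* (0.996), *Pparg* like *Stxbp3* (0.995), *Cpt2* like *Slc22a18* (0.989), *Pdk4* like *Uri1* (0.992) and *Acaa2* like *Nadk* (0.986). The 10th gene in each of these orders still had an r of 0.955 to 0.987, so that with 6 libraries many genes lie close together. An r takes no account of the size of a change. *Uri1* lay between 74.6 and 87.1 CPM, while *Pdk4* ran from 0.106 to 3.81 CPM. These correlations describe libraries that share treatment, day and depth.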

How the data were processed

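Reads per gene of 6 mouse libraries were analysed. The authors deposited 1 file of whole-number counts per gene and library, not normalized, for 56884 genes after 4 summary lines, which stayed out of library sizes and tests and held 19.29% to 26.71% of entries. STAR and the build mm39 are named in the submitters' processing notes; the annotation release and strand setting are not given in the sources used here. Symbols and positions came from GENCODE M39 (GRCm39), which matched 56323 identifiers. RefSeq promoters are of GRCm38.p6 and were used for letters only.

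Counts were tested with edgeR 4.0.16 (glmQLFit with bias-adjusted deviances, glmQLFTest, TMM scaling, filterByExpr with a minimum count of 10) in R 4.3.3, with Benjamini-Hochberg adjustment over all genes and a threshold of 0.05. All 9 members passed the filter. The SE is the absolute log2 fold change over the square root of F. CPM are scaled by TMM over the 6 libraries. Day 4 log2 fold changes used a prior count of 2. Replicates differed by more than sampling noise (chi-square per degree of freedom 33.2 with EtOH and 22.9 with 4-OHT at day 6) and were kept apart. The tests were checked on simulated counts with 200 genes changed, where the share of false calls at day 6 and over both days was above the nominal level, so adjusted p values near the threshold may be too small.

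Genes named are the 9 members, *Ythdf2*, 8 fixed pathway genes, and list genes with an adjusted p under 0.05, at most the 3 largest changes each way per list; for each member, the gene with the highest correlation is also named. *Cpt1b*, *Cpt1c*, *Rxrg*, *Pdk1* and *Pdk2* are given as relatives of members. Some pathway genes are not reported here and were left out of the lists and their counts. The members and lists were chosen with earlier results of these data known. Also tried were no filter, median-of-ratios scaling, DESeq2 1.42.0, a replicate block, 4 groups, leaving out each library and, for day 4, a prior count of 0.5. The edgeR method and the filter, set by treatment alone, were settled after fits with the earlier method and with a filter by treatment and day had been seen, because they follow an earlier description of these data; both are given as alternatives added after seeing the data. The counting interval given is exact at 95%, covers counting error only and assumes independent reads.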

Additional observations from a re-analysis of the deposited data

How the results depend on the processing

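No paired design is stated, and the replicate numbers 1 and 2 have only 2 pairs (correlation of same-number deviations 0.223). A replicate block raised the day 6 calls from 353 to 839 genes and from 1 to 3 members, *Acadl*, *Pdk4* and *Ppara*. DESeq2 called the same 3 among 505 genes at day 6, and 5 members among 856 genes over both days, with *Pdk4* and *Ppara* added. At day 6, 0 members were called with median-of-ratios scaling, without a filter or with the earlier edgeR method. A filter set by treatment and day, added after seeing the data as was the earlier method, tested 14737 genes over both days and called 649 genes and 3 members. Leaving out single libraries gave 99 (without EtOH replicate 1) to 409 genes and 0 to 1 members at day 6. Over both days it gave 361 to 699 genes and 0 to 2 members, the genes falling to 361 without either day 4 library and to 384 and 394 without 4-OHT replicate 1 and replicate 2 of day 6. Day 6 against day 4 gave 318 genes with DESeq2, 182 without a filter, 50 with the earlier method and 12 to 559 on leaving out libraries, and the difference between days gave 6 with DESeq2. Every sign that turned belonged to an uncalled value. On leaving out libraries, the day 6 log2 fold change ran from −0.01 to 0.71 for *Pparg*, −0.02 to 1.59 for *Ppargc1a* and −0.00 to 0.32 for *Plin2*. Over both days it ran from −0.01 to 0.15 for *Hadhb*. Between days it ran from −0.58 to 0.02 for *Ppara*, −0.16 to 0.15 for *Pparg*, −0.10 to 0.40 for *Cpt1a*, −1.70 to 1.29 for *Pdk4* and −0.16 to 0.15 for *Acadl*, with −0.22 for *Pdk4* in DESeq2 and 0.01 for *Acadl* without a filter. The cause of these changes was not tested. With 2 libraries a group, 1 library can decide a call, and *Pdk4* rests on 2 to 82 counts. Over both days, leaving out 1 day 4 library leaves the treatment difference to the day 6 libraries alone.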
